A study of Mus musculus with 20 samples.

Results

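Binding of Sox and Oct4 proteins was read at 3 loci of primitive endoderm regulators, Gata4, Gata6 and Sox7. Each locus was taken as a fixed window of mouse build mm9. The Gata4 window ran on chromosome 14 from 63750000 to 63940000, the Gata6 window on chromosome 18 from 10950000 to 11190000 and the Sox7 window on chromosome 14 from 64510000 to 64620000. A peak belonged to a window when its midpoint lay inside. Of 765133 peaks in 18 lists, 394 were in the windows, 197 at Gata4, 139 at Gata6 and 58 at Sox7. Overlapping peaks of the 18 lists were joined into regions, which gave 41 regions at Gata4, 34 at Gata6 and 8 at Sox7.

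Gata4 and Gata6 are zinc finger transcription factors of the GATA family. Gata6 is needed for the inner cells of the blastocyst to become primitive endoderm, and Gata4 is switched on later in the same lineage. Sox7 belongs with Sox17 to the F subgroup of Sox proteins and marks endoderm of the parietal type, the fate that F9 cells can take after retinoic acid (RA). Oct4 (Pou5f1) and Sox2 bind DNA side by side in pluripotent cells, and Oct4 can pair with Sox17 when that protein is present.

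KH2 mouse embryonic stem (ES) cells carried V5-tagged Sox2, Sox2KE, Sox17EK or Sox17, induced with doxycycline at 1 µg/ml. Sox2 and Sox17EK have a lysine, and Sox2KE and Sox17 a glutamate, at the exchanged residue. Libraries A and B were given for each Sox protein (8 in all) and for Oct4 in each line, except the Sox17 line with only library A (7 in all). Nothing in the labels says that A and B were separate cultures, so their spread may be technical. F9 embryonal carcinoma cells gave 1 Oct4 library untreated and, after 1 µM RA turned them into primitive endoderm-like cells, 1 Oct4 and 1 Sox17 library (F9+RA). The ES cells still have their own Sox2 and Oct4, and the tagged protein is an addition. For the Sox libraries from ES cells a V5 antibody is listed, with a Sox17 antibody beside it for Sox17, and for the Oct4 libraries from ES cells both an Oct4 and a V5 antibody. Peaks of a tagged Sox protein in those Oct4 libraries therefore cannot be told apart from peaks of Oct4.

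Lists held from 5836 peaks (Sox17 ES B) to 84196 (Oct4 F9+RA), and read depth was unknown. Each peak has a score from the authors' caller, at least 50 in every list, and was ranked by it within its own list. Scores and ranks order the peaks of 1 list and do not measure a change between lists. Chromosome 14, which carries Gata4 and Sox7, held 5.38% to 7.21% of the 5836 strongest peaks in the 15 ES libraries and 2.35% to 2.57% in the 3 F9 libraries. Chromosome 18, which carries Gata6, held 2.69% to 3.38% and 2.93% to 3.31%. Whether the chromosome 14 difference bears on the peaks described was not tested, so ES and F9 cells are described by presence and by rank within a list. Peak lists hold no expression, so the named cell types could not be checked against their markers.

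The Gata6 gene lies at about 11.052 to 11.086 Mb of the build, with the antisense-named gene Gata6os beside its lower end. Next to Gata4 are Neil2 and, as the nearest protein-coding gene on the other side, Blk. Sox7 is followed at its lower side by Pinx1. This gene order comes from the RefSeq table of build GRCm38, whose positions do not apply to mm9, so exons, introns and promoters were not assigned and a peak in a window may belong to a neighbour. Regions are named below by the distance of their centre from the most widely held region of the same window, which is at 0 kb.

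All 3 windows were rich in peaks in most libraries. In the Gata4 window the density was 0.353 to 6.28 times the mean of chromosome 14 over the ES libraries (median 3.23), and 4.42 to 6.04 times over the F9 libraries (median 5.99). Against the mean of the whole list the order turned, with 0.421 to 9.30 times over the ES libraries (median 3.70) and 2.52 to 3.07 over the F9 libraries (median 3.06). The F9 lists have few peaks on chromosome 14, so an ES to F9 order of density in this window depends on the scaling. On both scales the lowest value was that of Sox2 ES A, which had 1 peak there, and the highest that of Sox17 ES B with 4 peaks in a list of 5836. In the Gata6 window the ratio to chromosome 18 was 0 to 3.03 (median 1.89) in ES libraries and 1.30 to 4.45 in F9 libraries. Sox17 F9+RA was the highest there, with 14 peaks, and Sox17 ES B had none. For Sox7 the ratio was 0 to 5.43 in ES (median 1.93) and 1.16 to 3.27 in F9 libraries (median 3.18). Against the list mean the Sox7 values were 0 to 8.03 (median 1.97) in ES and 0.589 to 1.81 (median 1.67) in F9 libraries, so there too the order of the medians turned.

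**Figure D1:**
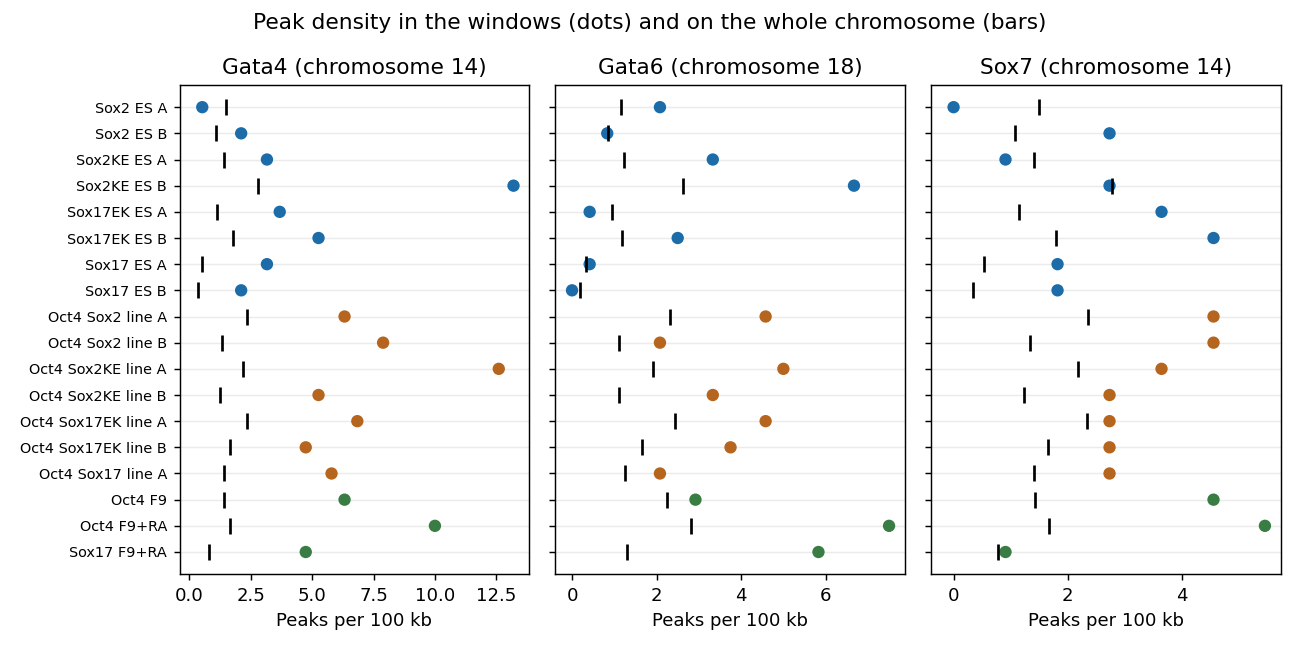
Peaks per 100 kb (x axis) in each window for the 18 libraries (dots, blue for Sox in ES, brown for Oct4 in ES, green for F9) with the mean density of the same list over the whole chromosome (bars). Sox2KE ES B (13.2 peaks per 100 kb) and Oct4 Sox2KE line A (12.6) lie farthest to the right at Gata4, and Oct4 F9+RA (7.5) at Gata6.

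Regions of many libraries were about as frequent in the windows as in the genome. A peak in at least 6 of the 18 libraries was found at 9 of 41 Gata4 regions, 7 of 34 Gata6 regions and 3 of 8 Sox7 regions, or 19 of 83 in all, against 22.2% of the 190862 regions of the genome. At least 11 libraries held 10 of the 83, against 10.4%. Peaks of 1 library alone made up 37 of the 83 regions, against 49% of the genome's regions. Those 37 came mostly from Sox2KE ES B (9), Sox17EK ES B (8), Oct4 F9+RA (8) and Sox17 F9+RA (8). Of the 93533 regions of 1 library in the genome, the same libraries held 12775, 16052, 21168 and 14614. Most such regions of the genome thus came from them too.

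The best-ranked Gata4 peaks of both F9+RA libraries lay in the region at +71.6 kb. It runs on chromosome 14 from 63883094 to 63884597. In F9+RA cells Sox17 had a score of 1199 there, rank 52 of 39768 (the top 0.131%), and Oct4 one of 1874, rank 277 of 84196 (0.329%). Oct4 of untreated F9 cells had no peak. The region thus ranked near the top of both F9+RA lists and was missing from the F9 list, which holds 64582 peaks. In ES cells the Sox17 scores were 128 (A, rank 2422 of 10301) and 93.0 (B, rank 1878 of 5836), the best of all Gata4 peaks in both Sox17 libraries. Sox2KE scored 54.7 (A) and 217 (B), Sox17EK 60.7 in B alone, and Sox2 had no peak in A or B. All 4 glutamate libraries and 1 of 4 lysine libraries therefore held it. An exact two-sided permutation test of that difference, with the p of the smaller tail multiplied by 2, gave p = 0.143, with a Benjamini-Hochberg adjusted p of 1 over 106655 regions. Oct4 lay there in all 3 libraries of the glutamate lines, with scores of 389 (Sox2KE line A), 154 (Sox2KE line B) and 85.1 (Sox17 line A). Of the lysine lines 1 of 4 libraries had an Oct4 peak, Sox17EK line A at 140. The exact permutation p for Oct4 was 0.229 (adjusted p = 1). By this exact permutation test complete separation gives p = 0.0286 at the least for Sox and 0.0571 for Oct4. No region of the genome passed adjustment in either contrast, even where separation was complete. The test therefore cannot decide whether the glutamate and lysine libraries differ at this region. No other region of the genome had the same pattern of presence over the 18 libraries.

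A pair of further Gata4 regions, to either side of +71.6 kb, also had Oct4 and Sox17 in F9+RA cells and no Oct4 in F9 cells. At +38.1 kb (chromosome 14, 63849681 to 63851044) Sox17 of F9+RA cells scored 804, rank 123 of 39768, and Oct4 of F9+RA cells 335, with no Oct4 peak in F9 cells. The ES libraries with a peak there were Sox2KE B (354.5) and Oct4 of the Sox2KE line A (132). At +90.2 kb (63901935 to 63903029) the scores were 368 for Oct4 and 218 for Sox17 in F9+RA cells, and the single ES peak was Oct4 of the Sox2KE line A (209). Both regions thus had ES peaks in libraries of the Sox2KE line alone, and in each case in 1 of the 2 replicates.

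**Figure D2:**
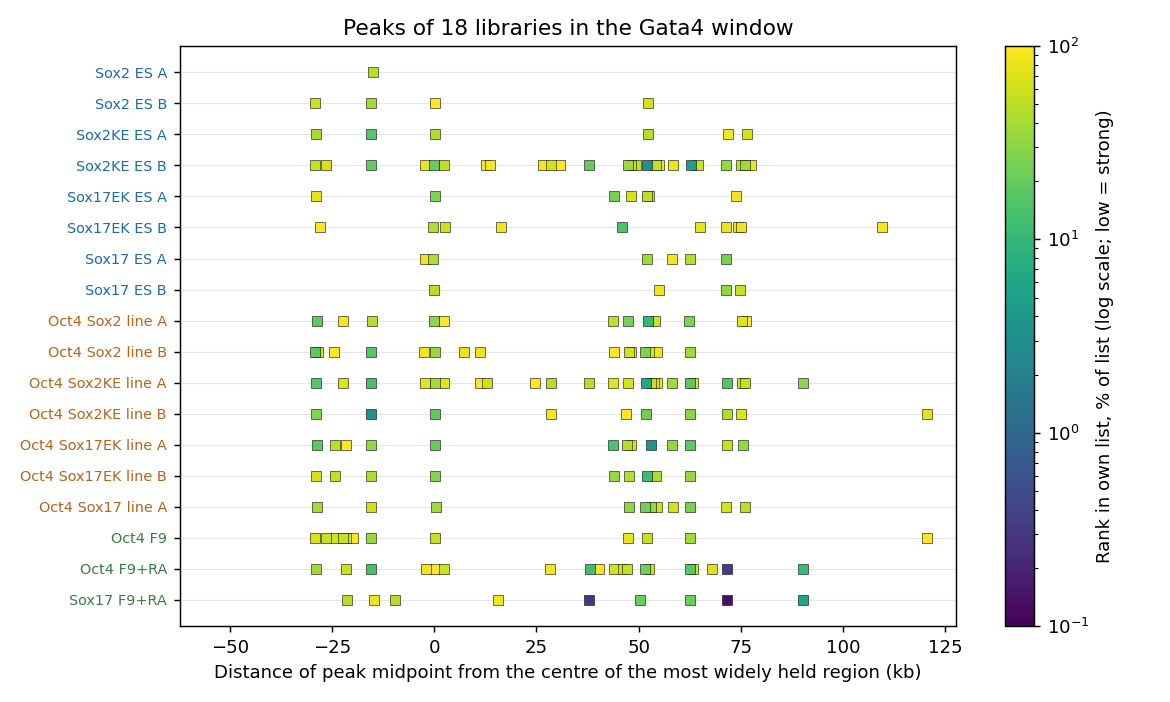
Midpoints of the 197 peaks of the Gata4 window by library, with the distance in kb from the centre of the most widely held region on the x axis and colour giving the rank of the peak in its own list (log scale, dark is strong). The darkest squares are Oct4 and Sox17 of F9+RA cells at +71.6 kb and Sox17 of F9+RA cells at +38.1 kb.

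Other Gata4 regions were bound before and after RA and in most ES lines. The region at 0 kb (63811085 to 63813478) had a peak in 16 libraries, the exceptions being Sox2 ES A and Sox17 F9+RA. Its Sox scores in ES cells were 51.0 for Sox2 B, 104 and 347 for Sox2KE, 155 and 82.1 for Sox17EK and 89.6 and 74.9 for Sox17. Oct4 scores were 315 and 150 (Sox2 line), 160 and 345 (Sox2KE line), 471 and 216 (Sox17EK line), 143 (Sox17 line), 103.5 (F9) and 50.4 (F9+RA). The F9+RA peak was rank 83483 of 84196, at the very end of its list, close to the minimum score. At +71.6 kb, by contrast, Oct4 of F9+RA cells was near the top of the same list. The presence pattern of the 0 kb region was found at 12 regions of the genome.

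The Gata4 -15.3 kb region (63796302 to 63797664) had ES peaks of both Sox2 forms and of neither Sox17 form. Sox2 scored 95.9 and 120 and Sox2KE 244 and 363.5, and neither Sox17EK nor Sox17 had a peak in A or B. It held the best Gata4 peak of Sox2 A, Sox2 B and Sox2KE A, and of Oct4 in Sox2 line B, Sox2KE line B and F9 cells. All 9 Oct4 libraries had a peak, and the best rank was that of Sox2KE line B, with a score of 818 at rank 1113 of 32848. The other Oct4 scores were 441 (Sox2KE line A), 182 and 262 (Sox2 line), 287 and 138 (Sox17EK line), 89.5 (Sox17 line), 184 (F9) and 318 (F9+RA). Sox17 of F9+RA cells scored 53.9. The same presence pattern was found at 114 regions of the genome.

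The widest Gata4 region, at +53.1 kb (63862938 to 63867889), held 28 peaks of 15 libraries over 4952 bp. The best peak of Oct4 lay here in the Sox2 line A (838), Sox2KE line A (663), Sox17EK line A (1829) and B (431) and Sox17 line A (214). Sox2KE B had a score of 1031 (rank 2427 of 71693), but Sox2KE A only 102 (rank 15542 of 33123). Both Sox2KE replicates thus held the region, at very different ranks. Oct4 of F9 cells scored 107 (rank 35208 of 64582) and Oct4 of F9+RA cells 206 (rank 19042 of 84196), and Sox17 of F9+RA cells had no peak there.

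At +62.7 kb (63874075 to 63875955) all 9 Oct4 libraries had a peak, from 148 (Sox2 line B) to 536 (Sox17EK line A). Sox proteins were found there in Sox2KE B (881), Sox17 A (87.4) and Sox17 of F9+RA cells (109). The -28.5 kb region (63782807 to 63784665) also had all 9 Oct4 libraries, with scores from 81.1 in F9 cells to 576 in Sox17EK line A, and no Sox17 library of either cell type. The +43.8 kb region (63855672 to 63856555) was the best Gata4 peak of Sox17EK A (169), and Oct4 in the same line scored 644 (A, rank 9651 of 68294) and 186 (B). Oct4 scores elsewhere at +43.8 kb were 154 and 51.8 (Sox2 line), 73.6 (Sox2KE line A) and 75.2 (F9+RA), and no other Sox library had a peak. The +47.4 kb region (63858666 to 63860746) had peaks in all 9 Oct4 libraries, with the highest score in Sox2 line A (382), and the +75.5 kb region (63886529 to 63888992) in 5 Oct4 libraries of ES cells and no F9 library.

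The Gata6 0 kb region (chromosome 18, 11050034 to 11056106) spans the lower end of the gene and was bound in 17 of 18 libraries, all but Sox17 ES B. It joined 45 peaks over 6073 bp, and the same presence pattern was found at 430 regions of the genome. Not all libraries shared a site in it. The peaks of Sox2 A (11052064 to 11052614) and Sox2 B (11051218 to 11051799) did not overlap. Nor did the Sox17EK A peak (11051306 to 11051653) overlap those of Sox17EK B (11050883 to 11051153 and 11051865 to 11052191). Sox2KE B had its strongest peak of the 3 windows here, 1904 at rank 506 of 71693, whereas Sox2KE A scored 97.7. The other Sox scores in ES cells lay between 61.2 and 99.1. It held the best Gata6 peak of Oct4 in every ES library but Sox2KE line A. Oct4 scored 891 and 282 (Sox2 line), 1191 and 563 (Sox2KE line), 981 and 334 (Sox17EK line) and 125 (Sox17 line). Oct4 of F9 cells scored 131 (rank 29808 of 64582) and Oct4 of F9+RA cells 1241 (rank 825 of 84196, the top 0.98%). Sox17 of F9+RA cells scored 430 at rank 497 of 39768. The region was thus in the F9 lists before and after RA, in the middle of the Oct4 list before and near its top after. With 1 library per condition this has no replicate check.

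The Gata6 -48.7 kb region (11003802 to 11004874) was bound by Sox2KE alone among the Sox proteins of ES cells. Sox2KE scored 294 (A, rank 3961 of 33123) and 1072 (B, rank 2248 of 71693), and no library of Sox2, Sox17EK or Sox17 had a peak. Oct4 in the Sox2KE line scored 1447 (A, rank 482 of 54703, the best Gata6 peak of that library) and 387 (B). In the other lines Oct4 scored 61.8 (Sox2 line A) and 55.6 (Sox17EK line A), near the minimum of 50, and was missing from the remaining 3 libraries. In F9 cells Oct4 had no peak, and in F9+RA cells Oct4 scored 560.5 (rank 4472 of 84196) and Sox17 57.6. The region was thus in the Oct4 list of primitive endoderm-like cells and in the Sox2KE and Oct4 lists of ES cells of the Sox2KE line. Since the Oct4 libraries also list V5, the Oct4 peaks of that line cannot be told apart from peaks of Sox2KE. Only 2 regions of the genome, this one included, had its presence pattern.

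The -46.5 kb region (11006019 to 11007095) had peaks in nearly the same libraries. Sox2KE scored 104 and 701.5, and Oct4 in the Sox2KE line 619 and 113. A single further ES library had a peak, Oct4 of the Sox2 line A with 82.9. Oct4 of F9+RA cells scored 233, Sox17 of F9+RA cells 78.0, and F9 cells had no peak. At -43.6 kb (11009091 to 11009832) the only ES peaks were those of Sox2KE B (185) and Oct4 Sox2KE line A (77.9), beside Oct4 (189) and Sox17 (144) of F9+RA cells. At -53.5 kb (10999263 to 10999925) Oct4 (356) and Sox17 (135.5) of F9+RA cells had the only peaks. These 4 regions, from -53.5 to -43.6 kb, all lay below the gene and had no Oct4 peak in untreated F9 cells. The next region, at -42.7 kb (11010006 to 11010762), held Sox2 A (51.7) and Oct4 of the Sox2 line (131 and 81.2) and of the Sox2KE line A (107.5), and no F9 library.

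**Figure D3:**
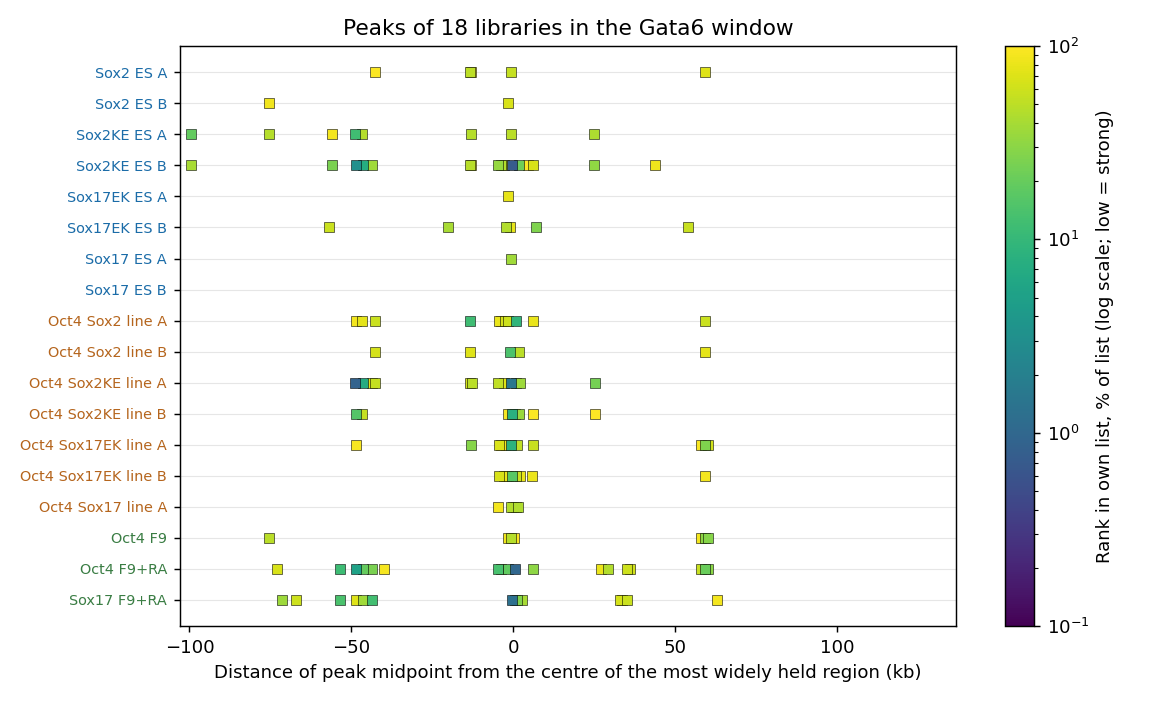
Midpoints of the 139 peaks of the Gata6 window by library, drawn as for Gata4. The cluster of regions from -53.5 to -43.6 kb holds peaks of Sox2KE, of Oct4 in the Sox2KE line, the Sox2 line A and the Sox17EK line A, and of both F9+RA libraries, and none of the Sox2, Sox17EK and Sox17 libraries of ES cells or of Oct4 in F9 cells.

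Presence in Sox2KE libraries and absence from all others was counted over the genome, a comparison chosen after the values were seen. Of 54 window regions with a Sox peak in ES cells, 5 (9.26%) had a peak in both Sox2KE libraries and in none of the 6 others, against 7.04% of 106655 regions of the genome. The reverse was found at 0 of the 54, against 0.0469%. All 5 were among the 20 such regions of the Gata6 window (25%), and none among 27 at Gata4 or 7 at Sox7. Besides -48.7 and -46.5 kb they were -99.5 kb (10953367 to 10953844, scores 214.5 and 166), -56.0 kb (10996606 to 10997456, 55.4 and 290.5) and +25.1 kb (11077766 to 11078607, 110 and 225). The exact two-sided permutation p of each of the 5 was 0.0714, or 0.0357 where the tail is not multiplied by 2. These are the smallest values that 2 against 6 libraries can give, and the Benjamini-Hochberg adjusted p was 1, or 0.504 without that factor. Sox2KE B has the longest Sox list of ES cells, 71693 peaks, and the Sox17 lists the shortest, 10301 and 5836, and the part of list length in this count was not tested. Without Sox2KE A the count rose to 22, but the rule then needs a peak in Sox2KE B alone. No share of the genome is given at that setting, so the rise is no result about the windows. Among the 5836 strongest peaks of each list, 1 of 12 window regions met the rule, at -48.7 kb, against 4.67% of the genome's. With scores of at least 100, 7 of 28 did, against 10.4%, and they were not limited to Gata6. The Gata4 regions at -28.5 and +53.1 kb and the Gata6 region at -13.1 kb were then added, and Gata6 -56.0 kb was lost.

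For Oct4, 2 of 39 window regions with an Oct4 peak in ES cells were held by both libraries of the Sox2KE line and by none of the other 5, against 1.7% of 95872 regions. The reverse was found at 0 of the 39, against 2.09%. This comparison too was chosen after the values were seen, and its exact two-sided permutation p for such regions was 0.0952 (0.0476 without the factor of 2), with an adjusted p of 1 either way. They were Gata6 +25.1 kb (274 and 51.2) and Gata4 +28.5 kb (63840323 to 63841262, 134 and 58.2). At Gata6 +25.1 kb the Sox2KE and Oct4 libraries of the Sox2KE line were thus the only 4 with a peak. The count was 7 without Oct4 Sox2KE line B, where the rule needs line A alone and no share of the genome is given. Neither named region met the rule among the 5836 strongest peaks or with scores of at least 100. Among the 5836 strongest peaks, Gata6 -48.7 kb was in both Sox2KE line libraries and no other (1 of 8, against 5.08%). In the other direction, Sox7 -5.5 kb was in all 5 libraries of the other lines and in neither of the Sox2KE line (1 of 8, against 6.25%). With scores of at least 100 the rule was met at Gata6 -48.7 and -46.5 kb (2 of 27, against 1.51%).

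Nearer the gene, further regions were held by Oct4 with few Sox libraries. At -13.1 kb (11039271 to 11040596) Oct4 scored 739 and 72.3 (Sox2 line), 125 (Sox2KE line A) and 334 (Sox17EK line A). Sox scores there were 91.7 (Sox2 A, its best of the window) and 103 and 133 (Sox2KE), and no F9 library had a peak. At -4.5 kb (11048172 to 11048869) Oct4 of F9+RA cells scored 318, no peak was present in F9 cells, and 5 Oct4 libraries of ES cells scored 56.4 to 113. The only Sox peak there was that of Sox2KE B (207). The +6.0 kb region (11058788 to 11059328) also had Oct4 in F9+RA (152) but not in F9 cells. None of these 3 regions had a Sox17 peak in either cell type. Sox17EK B had its best Gata6 peak at +7.2 kb (101.2), in no other library.

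Oct4 at Gata6 +59.2 kb (11111831 to 11112679) was found in lysine lines and not in glutamate lines. Scores were 131 and 69.1 (Sox2 line) and 369 and 58.2 (Sox17EK line), with no peak in the 3 libraries of the Sox2KE and Sox17 lines. Sox2 A had the only Sox peak (65.6). Oct4 scored 210 in F9 and 225 in F9+RA cells, so this region was in the F9 lists before and after RA. The best Gata6 peak of Oct4 in F9 cells was beside it at +60.3 kb (220, rank 18407 of 64582). It was the only 1 of 39 window regions that separated the 4 lysine from the 3 glutamate Oct4 libraries, against 1.19% of 95872 regions for lysine lines. The reverse was found at none of the 39, against 0.0939%. The exact permutation test, two-sided, gave p = 0.0571 (0.0286 without the factor of 2), and the Benjamini-Hochberg adjusted p was 1 either way. The call was lost among the 5836 strongest peaks (0 of 8 window regions, against 1.53% of the genome's) and with scores of at least 100 (0 of 27, against 1.21%). Without Oct4 Sox17 line A the count of such regions rose from 1 to 3, and it was 2 without Oct4 Sox2 line A, Oct4 Sox2KE line A or Oct4 Sox17EK line A. No share of the genome is given beside these counts.

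At Sox7, Oct4 held a pair of neighbouring regions in every Oct4 library. At -5.5 kb (chromosome 14, 64554764 to 64556039) Oct4 scored 1273 and 255 (Sox2 line), 295 and 115 (Sox2KE line), 1222 and 972 (Sox17EK line) and 323.5 (Sox17 line). F9 and F9+RA cells scored 473 (rank 7005 of 64582) and 325 (rank 10929 of 84196). Sox peaks at -5.5 kb were those of Sox17EK alone, 87.8 and 55.6. Oct4 thus ranked in the top 3.5% to 16.8% of the lists of the lysine lines and in the top 13.0% to 54.3% of those of the glutamate lines, ranges that overlap.

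The Sox7 0 kb region (64558389 to 64563359) joined 33 peaks of 16 libraries, all but Sox2 A and Sox2KE A. Oct4 of F9+RA cells scored 693 (rank 2920 of 84196) and Oct4 of F9 cells 199 (rank 20425 of 64582). Sox17 of F9+RA cells had its only peak of the window here, 220 at rank 2147 of 39768. Sox17 of ES cells scored 134 (A) and 69.8 (B), Sox2KE B 237, and Sox2 B, Sox17EK A and Sox17EK B between 60.9 and 86.4. Oct4 of ES cells ranged from 150 (Sox2 line B) to 923 (Sox17EK line A). Like the 0 kb region of Gata6, it was held before and after RA. The best Oct4 peaks of F9 and of F9+RA cells did not overlap here. Where F9 cells had their best peak, the F9+RA peak scored 440 (rank 6897 of 84196). Where F9+RA cells had theirs, the F9 peak scored 191 (rank 21254 of 64582). At each of these sites Oct4 thus had the better rank after RA. At the remaining site Oct4 was rank 32936 of 64582 in F9 and 33550 of 84196 in F9+RA cells.

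Sox17 had a further Sox7 peak without Oct4. At +6.1 kb (64566186 to 64567781) Sox17 scored 303 in A (rank 514 of 10301, the top 4.99%) and 51.2 in B (rank 5530 of 5836). Sox17EK B scored 93.1, and no Oct4 library, F9 library or Sox2 form had a peak. The replicates of Sox17 were thus far apart here. At +51.1 kb (64611330 to 64612596) Oct4 scored 83.6 to 118 in 4 ES libraries and 105 in F9+RA cells, and Sox2KE A had its only Sox7 peak, of 51.2. Sox2 B had its best Sox7 peak at -31.2 kb (64529338 to 64530104, 104), and Sox2 A had none in the window.

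**Figure D4:**
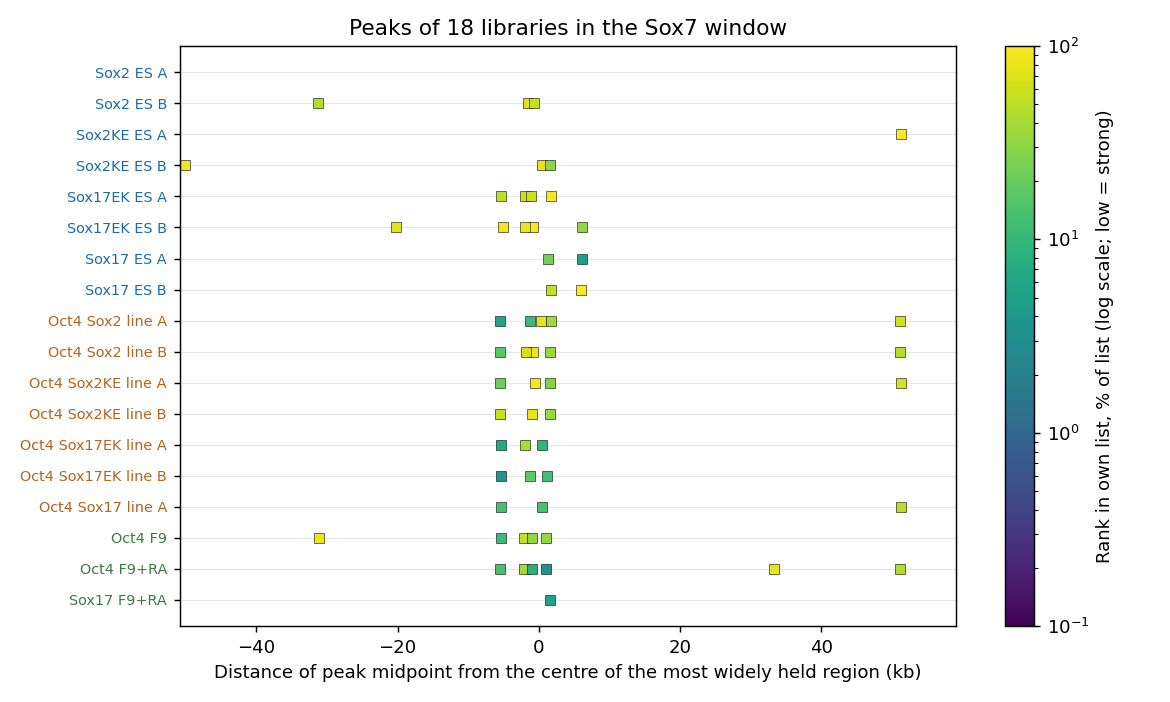
Midpoints of the 58 peaks of the Sox7 window by library, drawn as for Gata4. Peaks of the 9 Oct4 libraries stand at -5.5 kb and around 0 kb, and the Sox17 peaks of ES cells at 0 and +6.1 kb.

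Over the 3 windows, Oct4 regions found only after RA were more numerous than those found only before. Of 45 window regions with an Oct4 peak in F9 or F9+RA cells, 25 (55.6%) had it in F9+RA alone, against 36.3% of 93596 regions of the genome. Only 7 (15.6%) had it in F9 alone, against 19.7%, and 13 had it in both. At Gata6 the counts were 13 of 18 after RA alone (72.2%) and 1 in F9 alone. At Gata4 they were 10 of 22 (45.5%) and 5, and at Sox7 2 of 5 and 1. Oct4 of F9+RA cells has 84196 peaks in its list and Oct4 of F9 cells 64582, and the part of list length was not tested. Among the 39768 strongest peaks of each list, 12 of 24 window regions had Oct4 after RA alone, against 23.3% of the genome's, and 4 before RA alone, against 25.6%. With scores of at least 100 the counts were 12 of 22 (against 25.8%) and 2 (against 22.9%). These counts compare 1 library with 1 library.

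Sox17 of F9+RA cells lay at 21 window regions, 13 of them with Oct4 of F9+RA cells (61.9%, against 52% of 36458 Sox17 regions of the genome). Both peaks needed only to lie in the same joined region. At Gata4 -15.3 kb the Sox17 peak (63797349 to 63797592) did not overlap the Oct4 peak of F9+RA cells (63796348 to 63797322). Of the 25 regions with Oct4 after RA alone, 8 had Sox17 (32%, against 15.1% of 33950). The 8 regions were 3 at Gata4 (+38.1, +71.6 and +90.2 kb) and 5 at Gata6, the last of which was +35.3 kb (11088178 to 11088620), with scores of 79.3 for Oct4 and 63.6 for Sox17. In ES cells a Sox2KE peak was present at 5 of the 8, against 32.3% of the 5112 such regions of the genome. A Sox17EK peak was present at 1 (7.9%), a Sox17 peak at 1 (6.55%) and a Sox2 peak at 0 (9.53%). Oct4 of the Sox2KE line was present at 6 of the 8 (27.7%), Oct4 of the Sox2 and of the Sox17EK line at 2 each (14.3% and 14.4%) and Oct4 of the Sox17 line at 1 (9.96%). These shares describe 8 regions, and Sox2KE B is also the longest Sox list of ES cells. No Sox7 region was among the 8.

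**Figure D5:**
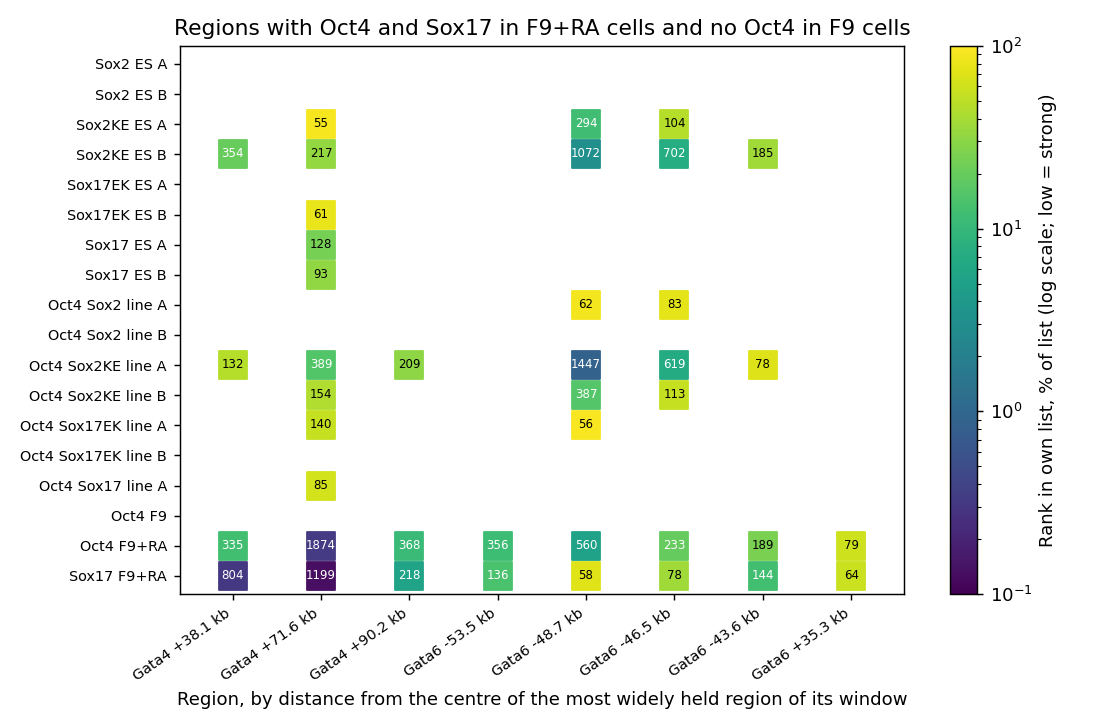
Scores (numbers) at the 8 regions with Oct4 and Sox17 peaks in F9+RA cells and no Oct4 peak in F9 cells, by library, with colour for the rank in the list (log scale). Among ES libraries, peaks of Sox2KE B stand at 5 of the 8 regions and peaks of Oct4 Sox2KE line A at 6, and Sox2 has none.

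Lysine and glutamate Sox proteins were not fully separated at any region of these loci. Such regions were rare in the genome too, so their absence does not set the loci apart. A call for the glutamate side also needs a peak in Sox17 B, a list of 5836 peaks. None of the 54 window regions had a peak in all 4 lysine and no glutamate library, against 0.939% of 106655 regions, or in all 4 glutamate and no lysine library, against 0.113%. By the exact two-sided permutation test 0 window regions had an unadjusted p under 0.05 (smallest 0.143), and 1122 of the genome had one, of which 0 passed Benjamini-Hochberg adjustment. Without Sox17EK B, 1 window region was separated. Nor was Sox17 set apart from the other 3 proteins, a pattern that was also rare in the genome. No window region had a peak in both Sox17 libraries and none of the 6 others, against 0.308%, or the reverse, against 1.44%, and the smallest exact permutation p of a window region was 0.214 (0.107 without the factor of 2). 1 such region appeared without Sox2 A, without Sox17EK B or without Sox17 A. For the counts with a library left out no share of the genome is given. Among the 5836 strongest peaks of each list, 4 of 12 window regions were held by both Sox17 libraries and no other Sox library, against 4.57% of 19806 regions of the genome. They were Gata4 0 kb and +71.6 kb and Sox7 0 kb and +6.1 kb. That setting takes all of the Sox17 B list, down to its lowest scores, and only the top of the others.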

How the data were processed

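Chromatin immunoprecipitation and sequencing gave 1 peak list for each of 18 of 20 samples, leaving 2 mock ones, not analysed here. The authors deposited peak positions in bp of build mm9, per the submitters' processing notes, with peak names of MACS. They also deposited a score per peak, never under 50, probably 10 times the −log10 p, which is inferred from the values. No aligner, caller version, setting or control is given in the sources used here. Starts were read as counting from 0 and printed counting from 1.

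Peaks of the 18 lists overlapping by at least 1 bp were joined into regions over the genome. A library counted as bound where it had a peak in the region, so peaks of different libraries in a region need not overlap each other. Presence was compared by exact two-sided permutation tests over libraries (the smaller tail times 2) with Benjamini-Hochberg adjustment over all regions with a peak in the libraries compared. Ties share the best rank. The matching and the test were tested on simulated data. The simulated regions lay too far apart to be joined, so the chaining of neighbouring peaks into long regions was not tried. Regions in at least 6 libraries and each library's best peak per window were to be named. The loci and comparisons were chosen with earlier results of these data known, and both comparisons of Sox2KE and its line with the others were added after the data were seen. No annotation of mm9 was used, so the planned list of other endoderm genes and the motif search were not run. Alternatives were the strongest peaks alone, scores of at least 100, joining by midpoints, and leaving out each library. Versions were 3.11.15 for Python, 2.4.6 for NumPy, 2.3.3 for pandas and 1.17.1 for SciPy.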

Additional observations from a re-analysis of the deposited data

How the results depend on the processing

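Of the 394 window peaks, 53 were among the 5836 strongest of their lists and 198 had scores of at least 100. Read depth was unknown. Leaving out each library gave 0 to 1 regions separating lysine from glutamate Sox proteins, 0 to 1 for Sox17 against the others, 1 to 3 for Oct4 of lysine against glutamate lines, 5 to 22 for Sox2KE against the others and 2 to 7 for Oct4 of the Sox2KE line. No share of the genome is given beside these leave-out counts. With the 5836 strongest peaks the counts for Sox17, Oct4 of lysine against glutamate lines and Sox2KE were 4, 0 and 1. With scores of at least 100 the Oct4 count was also 0. Joining midpoints within 500 bp left all 5 counts unchanged. Regions with Oct4 in 1 of F9 and F9+RA numbered 32, or 16 with the 39768 strongest peaks and 14 with scores of at least 100. With midpoints linked within 200 bp they numbered 36. Sox17 regions with Oct4 numbered 13, or 9 with midpoints linked within 200 bp. They were 11 with the 39768 strongest peaks and 8 with scores of at least 100, and no share of the genome is given beside these alternatives. The cause was not tested.

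Libraries A and B of different groups share only a letter. Differences A minus B correlated between -0.07 and 0.11 over 9 pairs of groups. The counts of 0, 0, 1, 5 and 2 rest on presence alone, so permuting within letters (replicate block) could not change them. It raised the smallest possible exact permutation p for lysine against glutamate Sox proteins from 0.0286 to 0.0556. For Oct4 of lysine against glutamate lines this p rose from 0.0571 to 0.111, and for Oct4 of the Sox2KE line from 0.0952 to 0.167. For Sox17 and for Sox2KE against the others it rose from 0.0714 to 0.125. A two-sided p without doubling, added after the data were seen, left 0 adjusted calls in all 5 comparisons.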

Other observations

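7 window regions were bound by Oct4 in F9 cells and not in F9+RA cells, and those named here were chosen after their values were seen. At Gata4 -24.3 kb (chromosome 14, 63787652 to 63788289) Oct4 scored 89.8 (F9), 170.5 and 117 (Sox17EK line) and 52.5 (Sox2 line B), and no Sox library had a peak. At Gata4 -22.3 kb (63789678 to 63790191) the scores were 99.4 in F9 cells, 58.0 in the Sox2 line A and 75.8 in the Sox2KE line A. At Gata6 the only such region was -75.3 kb (chromosome 18, 10977362 to 10978098), with 121 in F9 cells, 103 for Sox2KE A and 57.0 for Sox2 B. The best ranked of the 7 such regions in the F9 list was that at Gata6, at rank 31816 of 64582.

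Among regions of 1 library the best rank within a list was that of Sox17 F9+RA at Gata4 +50.3 kb (109, rank 8164 of 39768). The highest score, 114 (Sox2KE B, Gata4 +49.3 kb), was rank 38893 of 71693, and scores are not comparable between lists.

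Sox17EK B had a Gata4 peak of 137 at +46.1 kb (63858104 to 63858638), rank 5059 of 36700 and its best of the window, where no other ES library had one and Oct4 of F9+RA cells scored 77.9.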
